A study of Homo sapiens with 20 samples.

Results

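The clustered protocadherin genes are 53 genes in tandem on the long arm of human chromosome 5, 15 in the α cluster (PCDHA), 16 in the β cluster (PCDHB) and 22 in the γ cluster (PCDHG). The members were chosen by gene family, and all 53 were found among the 19970 protein-coding genes of chromosomes 1 to 22 and X in GENCODE 44 (hg38). The study performed ChIP-seq of RAD21, SA1 and SA2 in CHM13 cells, a line from a complete hydatidiform mole, and in RPE-1 cells, from retinal pigment epithelium, both immortalised with telomerase, and neither line received a further treatment. Each subunit had 3 replicates in CHM13 cells and 2 in RPE-1 cells, with total chromatin as input, and the antibody against RAD21 was not the same in the lines, whereas those against SA1 and SA2 were. Chromatin was also sheared in different sonicators, and Drosophila chromatin was added as an internal control in CHM13 cells only. Most CHM13 libraries also held more reads. A listed locus had to be seen in at least 2 replicates, of 3 in CHM13 cells and of 2 in RPE-1 cells. These differences, the line and the RAD21 antibody cannot be told apart. The identity of either line cannot be checked from peak positions. The data are 6 lists of hg38 peak positions, 1 for each subunit and line, in which the replicates are already merged.

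RAD21 is the kleisin of cohesin, the ring that holds sister chromatids together and extrudes chromatin loops, and SA1 and SA2 are alternative subunits that bind it. Clustered protocadherins are cell adhesion molecules, best known in neurons, where each cell expresses its own choice of isoforms. Every α and γ gene has a large variable first exon with its own promoter, which is spliced to constant exons shared by the cluster, whereas β genes have no constant exons. CTCF and cohesin are known to bind at many of these promoters and at enhancers downstream of the clusters, and most of the promoters carry a conserved sequence element that several C-type genes and PCDHB1 are known to lack.

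Many α, β and γ promoters shared a short stretch close to the start, and it is shown here. The peaks at member starts described below all covered the start, so most stretches this close to it would lie within them. In the 250 bases before the RefSeq start (table on hg38), the 10-mer found in the most promoters was read for each cluster, and the nearest match to it is in capitals. All stretches except that of PCDHAC2 are on the plus strand, which is the strand of every member. In the β cluster, PCDHB16, PCDHB10 and PCDHB15 had peaks of all 3 subunits in CHM13 cells, PCDHB9 had RAD21 and SA1, and PCDHB1 had none.
PCDHB16, chr5:141182311-141182340: gagaacgcgtGGTGGCGCTGcaggttaaga
PCDHB10, chr5:141192300-141192329: gaggccacacGGTGGCGCTGcaggctaaag
PCDHB15, chr5:141245315-141245344: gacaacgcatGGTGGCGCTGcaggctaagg
PCDHB9, chr5:141187075-141187104: gaagccacaaGGTGGCGCTGcagactgaag
PCDHB1, chr5:141051338-141051367: gctagcctttGGTGGTGCTGcagttagagg
In the γ cluster, PCDHGA11 had a peak in all 6 lists, PCDHGC3 in 4, PCDHGA3 and PCDHGA10 in the 3 CHM13 lists, PCDHGB7 in RPE-1 lists, and PCDHGA5, PCDHGB4 and PCDHGC4 in none.
PCDHGA11, chr5:141420974-141421003: tgggctctagGCGCCGCTGCtcaccaatca
PCDHGC3, chr5:141475882-141475911: gggactctgtGTGCCGCTGTcggccaatga
PCDHGA3, chr5:141343769-141343798: aggcctcttaGTGTCGCTGTtgaccactca
PCDHGA10, chr5:141412933-141412962: aggactctgaGCGCCGCTGTtcacctacta
PCDHGB7, chr5:141417585-141417614: gagcctctggGCGCCGCCGTcggccagtgc
PCDHGA5, chr5:141364109-141364138: aggactctgaGTGTCGCTGTtgaccaaagt
PCDHGB4, chr5:141387619-141387648: ctgactctggGCGCCGCTGTtggccaaagt
PCDHGC4, chr5:141484954-141484983: ctgagcccggGAGCCGCTGTctgccaatcg
In the α cluster, PCDHA4 had RAD21 and SA2 peaks, PCDHA6 and PCDHA8 an SA2 peak, and PCDHA1, PCDHA7 and PCDHAC2 none. The nearest match of PCDHAC2 has 3 differing bases, more than the 2 allowed in the counts below, so PCDHAC2 is counted as without the 10-mer. That match is on the minus strand and is printed as read on that strand.
PCDHA4, chr5:140806978-140807007: ttggagccacATGATGTCGCtctttaccac
PCDHA6, chr5:140827896-140827925: ttggagccgcATGATGTCGCtgtctaccat
PCDHA8, chr5:140841129-140841158: ttgaagccacATGATGTCGCtgtctaccaa
PCDHA1, chr5:140786085-140786114: cattggccacATGATGTCGCtgtacaccac
PCDHA7, chr5:140834171-140834200: tgatggccacATGATGTCGCtctttaccgc
PCDHAC2, chr5:140966390-140966419: aagtcctgctCTGATTCCGCgccgaagtgg
The whole 250 bases before PCDHGA11, the member with the most lists, and before PCDHB1, the β member with none, are given for context, with the same stretch in capitals.
PCDHGA11, chr5:141420801-141421050: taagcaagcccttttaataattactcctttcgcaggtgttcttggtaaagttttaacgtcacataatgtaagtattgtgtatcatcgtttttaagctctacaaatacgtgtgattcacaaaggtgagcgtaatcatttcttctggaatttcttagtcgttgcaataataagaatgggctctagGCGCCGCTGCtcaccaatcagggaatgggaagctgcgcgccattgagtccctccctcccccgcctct
PCDHB1, chr5:141051124-141051373: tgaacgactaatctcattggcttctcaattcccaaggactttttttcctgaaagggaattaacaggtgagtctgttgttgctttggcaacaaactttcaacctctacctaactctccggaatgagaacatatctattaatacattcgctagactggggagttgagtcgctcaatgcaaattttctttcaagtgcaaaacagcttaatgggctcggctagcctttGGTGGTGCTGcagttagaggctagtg

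In CHM13 cells, about as many member genes had a peak as lacked one. Within 1 kb of the first exon, RAD21 peaks were found at 26 of 53 members (49.1%, 95% Wilson interval 36.1 to 62.1), against 34.3% of all protein-coding genes under the same rule. SA1 peaks were found at 24 members (45.3%, 32.7 to 58.6) against 18.3% of all genes, and SA2 peaks at 25 (47.2%, 34.4 to 60.3) against 14.8%. In all 3 lists the lower bound for the members lay above the share of all genes, by the least for RAD21. In RPE-1 cells, 4 members had RAD21 (7.55%, 2.97 to 17.9), 2 had SA1 and 2 had SA2 (both 3.77%, 1.04 to 12.8), against 6.32%, 1.92% and 1.46% of all genes. All 3 RPE-1 intervals contain the share of all genes. The intervals cover counting error only, since the lists hold neither replicate values nor peak heights, and neighbouring members are near copies of each other.

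The first exons of the members are long, with a median of 2601 bp (2470 to 7973) against 185 bp for protein-coding genes, so their windows had a median of 4601 bp against 2185 bp. In this tandem array 13 peaks counted for a gene were the start peak of its neighbour, as at PCDHB12, whose window reaches the peak at PCDHB13. With 1 kb on either side of the start position alone, the windows are of equal length, and 25, 22 and 23 members had RAD21, SA1 and SA2 in CHM13 cells, against 33.9%, 17.8% and 14.3% of all genes. In RPE-1 cells the counts were 4, 2 and 1, against 5.99%, 1.77% and 1.36%. Counts of members below refer to this narrower window unless the first exon is named. By it, 29 members had a peak of any subunit in CHM13 cells, 17 had all 3, 4 had a peak in RPE-1 cells and 22 had none in any list. The shares of all genes were computed for single lists only, so these combined counts have no share to be set against.

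**Figure D1:**
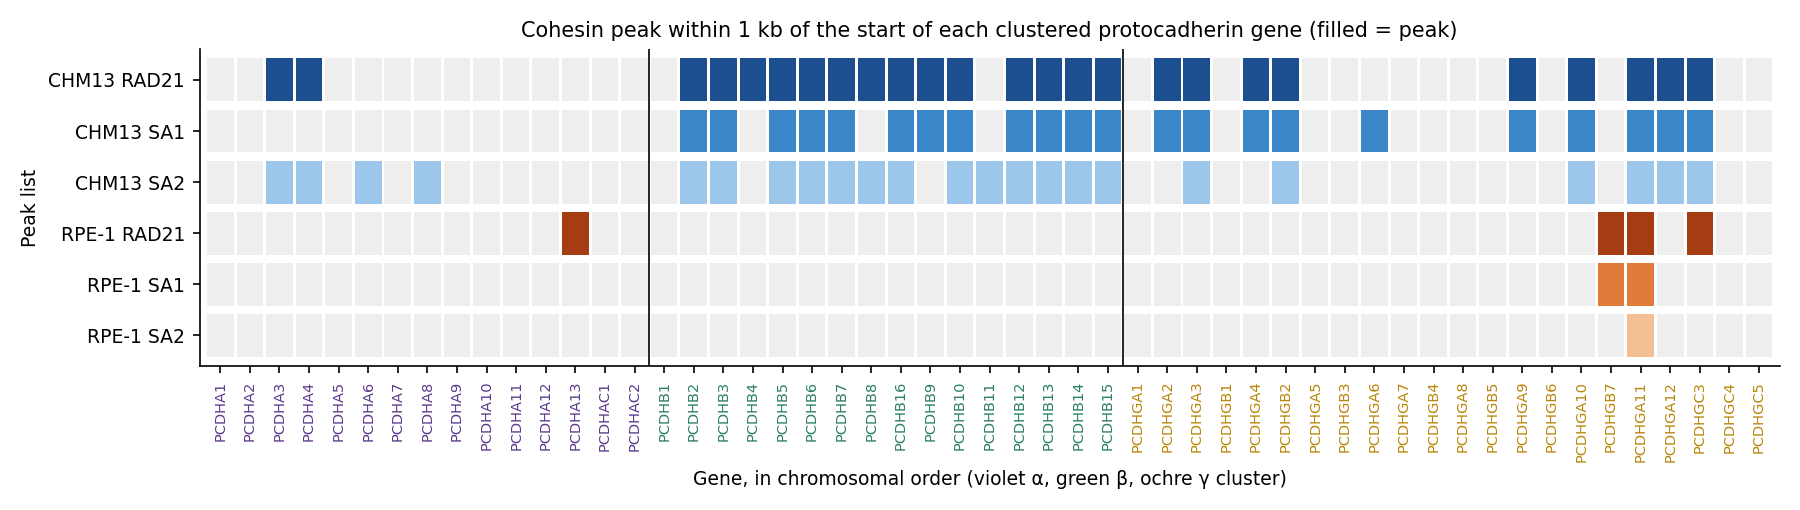
Presence of a peak within 1 kb of the start for the 53 genes in chromosomal order (columns) in each of the 6 lists (rows), filled where a peak was listed. The β cluster is filled almost throughout in CHM13 cells and empty in RPE-1 cells, and PCDHGA11 is the single column filled in all 6 rows. Of all protein-coding genes, 5.99% (RAD21), 1.77% (SA1) and 1.36% (SA2) had an RPE-1 peak by the same rule.

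In CHM13 cells the β and α clusters differed, with γ between them. By the first-exon window, RAD21 was found at 14 of 16 β genes (87.5%, 64.0 to 96.5), at 10 of 22 γ genes (45.5%, 26.9 to 65.3) and at 2 of 15 α genes (13.3%, 3.74 to 37.9). The β and α intervals do not overlap. SA1 was found at 12 β genes (75.0%, 50.5 to 89.8), 12 γ genes (54.5%, 34.7 to 73.1) and 0 α genes (upper bound 20.4%). SA2 was found at 14 β genes (87.5%, 64.0 to 96.5), 7 γ genes (31.8%, 16.4 to 52.7) and 4 α genes (26.7%, 10.9 to 52.0), and here the β interval stood apart from both others. The order of β, γ and α was the same for all 3 subunits. The γ and α intervals overlapped in the RAD21 and SA2 lists, and those of β and γ in the RAD21 and SA1 lists. Of all protein-coding genes, 34.3% had RAD21, 18.3% SA1 and 14.8% SA2 under the same rule. The β intervals lay above these shares, the α intervals contained them, and the γ interval contained that of RAD21 only. Genes of a cluster share sequence and position and are not replicates, so the shares of the clusters were not tested.

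**Figure D2:**
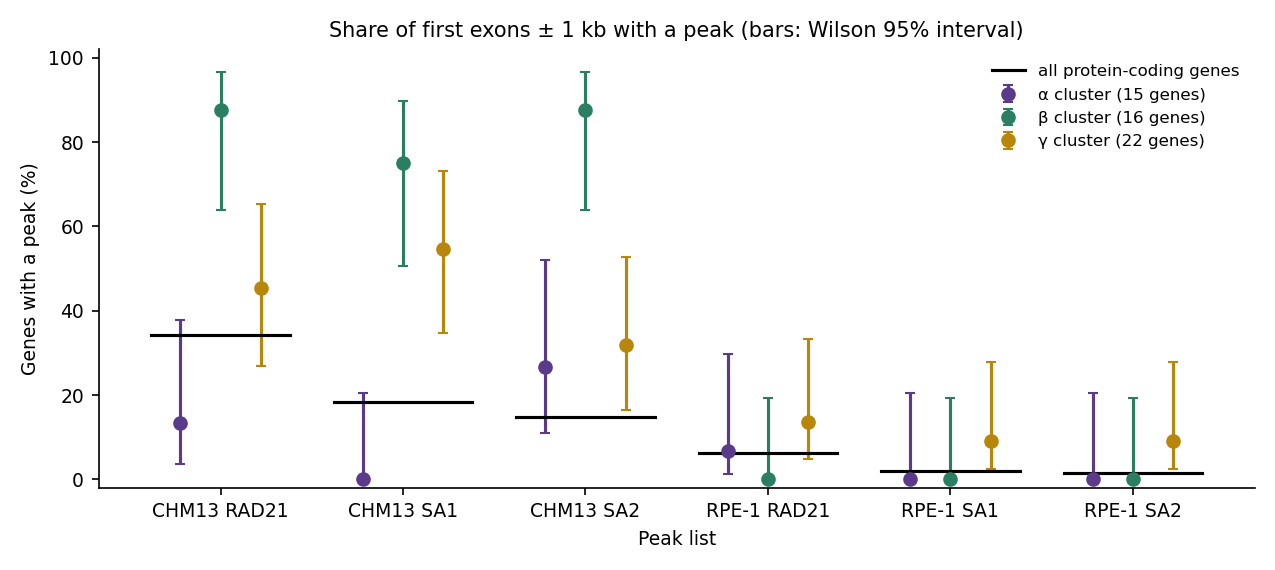
Share of genes with a peak within 1 kb of the first exon (%) for the α (15 genes), β (16) and γ (22) clusters in each list, with 95% Wilson intervals as bars and the share of all protein-coding genes as a black line. β lies far above the line in the 3 CHM13 lists and at 0 in the 3 RPE-1 lists, where its bars contain the line.

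β genes encode protocadherins from single exons, and 15 of the 16 had a peak in CHM13 cells. Peaks of all 3 subunits lay at 11 of them: PCDHB2, PCDHB3, PCDHB5, PCDHB6, PCDHB7, PCDHB16, PCDHB10, PCDHB12, PCDHB13, PCDHB14 and PCDHB15. PCDHB4 had RAD21 only, PCDHB9 had RAD21 and SA1, PCDHB8 had RAD21 and SA2, and PCDHB11 had SA2 only. At PCDHB16 the RAD21 peak was 642 bp wide (chr5:141182036-141182677), the SA1 peak 487 bp and the SA2 peak 540 bp. At PCDHB7 the widths were 655, 611 and 676 bp, and at PCDHB2 529, 343 and 506 bp. Among the β genes with fewer subunits, the RAD21 peak of PCDHB4 was 392 bp wide, those of RAD21 and SA2 at PCDHB8 were 339 and 334 bp, and the SA2 peak of PCDHB11 was 302 bp. PCDHB9 had a RAD21 peak of 507 bp and an SA1 peak of 415 bp. PCDHB1, the first gene of the cluster, had none in any list and starts far upstream of the other β genes. No β gene had a peak of any subunit in RPE-1 cells (0 of 16 in each list, upper bound 19.4%). The RPE-1 shares of all protein-coding genes, 5.99% (RAD21), 1.77% (SA1) and 1.36% (SA2), lie below that bound. The absence at β genes is thus within counting error of the share of all genes.

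In the γ cluster, 10 of 22 genes had a peak at the start in CHM13 cells. PCDHGA3, PCDHGB2, PCDHGA10, PCDHGA11, PCDHGA12 and PCDHGC3 had all 3 subunits, PCDHGA2, PCDHGA4 and PCDHGA9 had RAD21 and SA1, and PCDHGA6 had SA1 only. Thus every γ gene with SA2 also had RAD21 and SA1. The γ genes fall into A, B and C types by sequence, the C type being expressed in most neurons rather than by choice, and 8 of the 12 A-type genes had a CHM13 peak, against 1 of 7 B-type genes (PCDHGB2) and 1 of 3 C-type genes (PCDHGC3). This split by type was made after the values had been seen. PCDHGA1, PCDHGB1, PCDHGA5, PCDHGB3, PCDHGA7, PCDHGB4, PCDHGA8, PCDHGB5, PCDHGB6, PCDHGC4 and PCDHGC5 had no peak in any list. The PCDHGA10 peaks were among the widest at a member start, where RAD21 spanned 1059 bp, SA1 1084 bp and SA2 683 bp, and the PCDHGC3 RAD21 peak was the widest at 1246 bp (chr5:141475487-141476732). The SA1 peak at PCDHGA6 was the narrowest, at 255 bp.

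PCDHGA11 was the member with the most lists, and its peaks in both lines lay over the same start. In CHM13 cells its RAD21 peak spanned 665 bp (chr5:141420670-141421334), its SA1 peak 490 bp and its SA2 peak 545 bp. In RPE-1 cells RAD21 spanned 761 bp (chr5:141420827-141421587), SA1 734 bp and SA2 384 bp. The RAD21 and SA1 peaks were thus wider in the RPE-1 lists than in the CHM13 lists, whereas over the whole genome the median RAD21 width was 443 bp in RPE-1 cells and 724 bp in CHM13 cells.

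In the α cluster, 4 of 15 genes had a peak in CHM13 cells, and each of the 4 had SA2. PCDHA3 and PCDHA4 had RAD21 (446 and 444 bp) together with SA2 (395 and 460 bp), while PCDHA6 and PCDHA8 had SA2 alone (384 and 373 bp). No α gene had SA1 in either line. PCDHA1, PCDHA2, PCDHA5, PCDHA7, PCDHA9, PCDHA10, PCDHA11, PCDHA12 and the C-type genes PCDHAC1 and PCDHAC2, which resemble the γ C-type genes more than the other α genes, had no peak in any list. PCDHA13 had a peak in 1 list, a RAD21 peak of 337 bp in RPE-1 cells (chr5:140881947-140882283).

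Peaks lay at the start itself. All 70 CHM13 peaks at a member start covered the start position, and their centres lay from -126 to 147 bp of it, negative values being before the start, with a median of -42.5 bp. Over all protein-coding genes, the CHM13 peaks within 1 kb of a start covered it in 81.2% (RAD21), 79.6% (SA1) and 66.2% (SA2). The 7 RPE-1 peaks also covered the start, with centres from -73 to 156 bp. Over all protein-coding genes, RPE-1 peaks within 1 kb of a start covered it in 39.7% (RAD21), 35.3% (SA1) and 28.6% (SA2). All centres of the CHM13 and RPE-1 peaks at member starts were within 200 bp of the start. Among CHM13 peaks within 1 kb of any protein-coding gene start, 43.3% of RAD21, 57.7% of SA1 and 38.7% of SA2 centres were this close. In RPE-1 cells the share over all genes was 35.2% for RAD21, 35.3% for SA1 and 33.1% for SA2. Median centres were alike in the clusters, at -56.0 bp in α, -43.0 bp in β and -40.0 bp in γ in CHM13 cells. No peak lay inside a member's first exon away from a start.

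**Figure D3:**
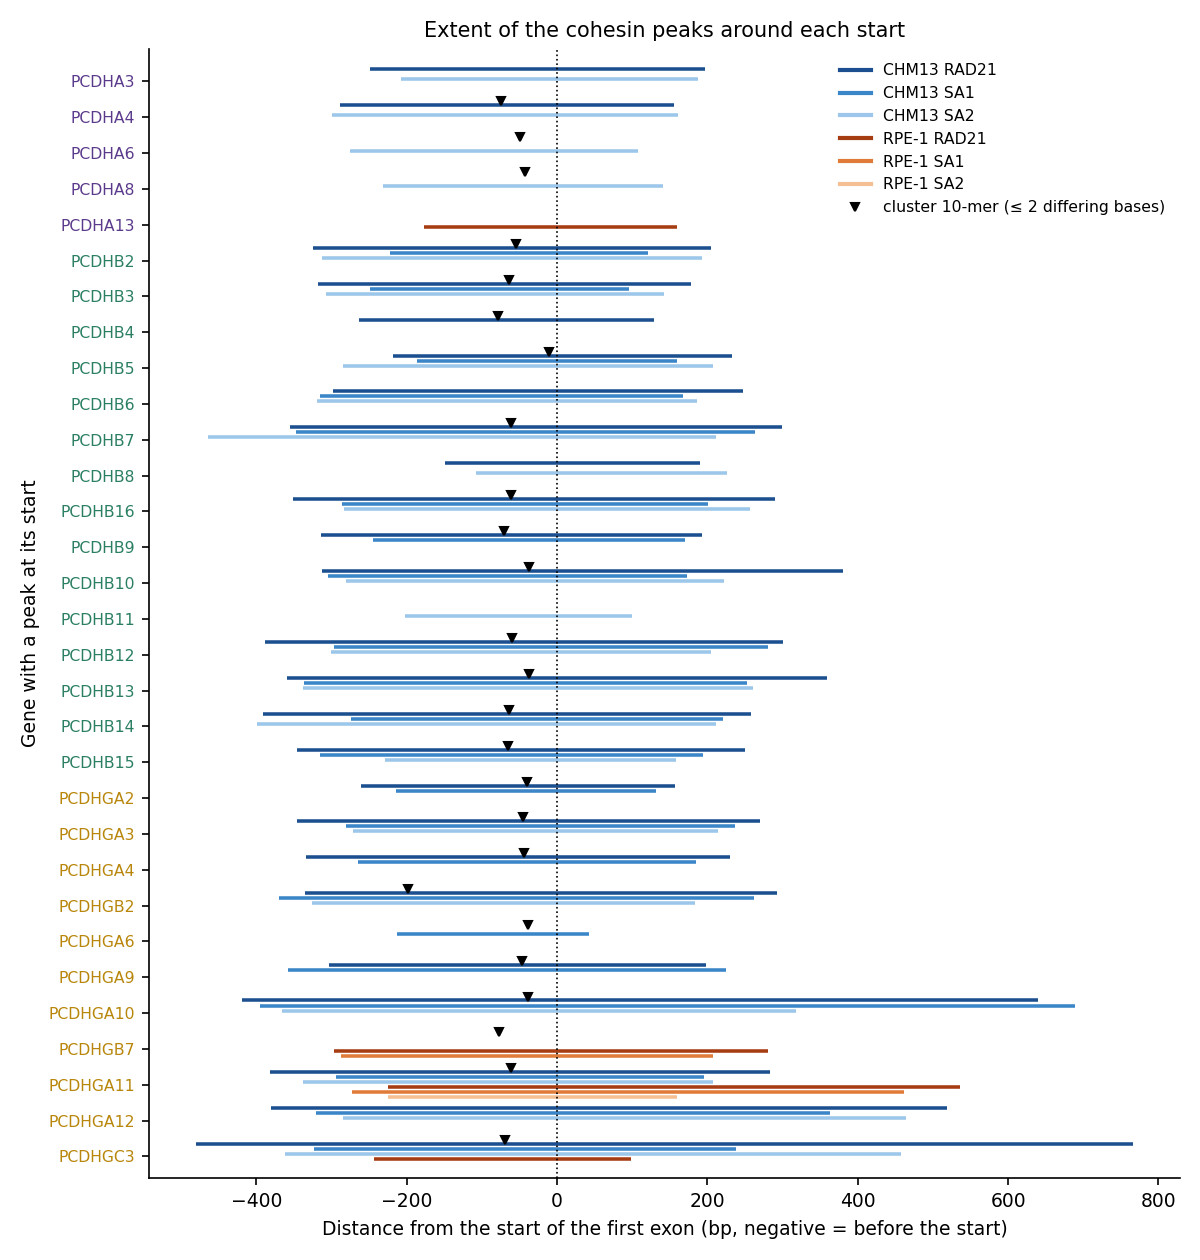
Extent of every peak at a member start, as distance in bp from the first base of the first exon, 1 line per list in the list's colour, with a black triangle at the nearest match to the cluster's 10-mer where it has up to 2 differing bases. The lines of all 31 genes cross the start, and the triangles lie within the span of the lines, as most positions this close to the start would. Lines are placed from the GENCODE start and triangles from the RefSeq start. For PCDHGB2 these differ (GENCODE start at -142 bp from the RefSeq start), so its triangle is drawn too far from the start.

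In CHM13 cells, peaks at member starts had lower median widths than peaks at gene starts in general. RAD21 peaks had a median width of 596 bp (339 to 1246, 25 peaks), against 921 bp at the starts of protein-coding genes and 724 bp over the list. SA1 peaks had a median of 492.5 bp (255 to 1084) against 682 bp at gene starts, and SA2 peaks 505 bp (302 to 820) against 690.5 bp. In RPE-1 cells the order was the other way, with 459.5 bp against 451 bp for the 4 RAD21 peaks, 615 bp against 407 bp for the 2 SA1 peaks and 384 bp against 351 bp for the single SA2 peak. Width is the only size the lists give, and it is not a measure of occupancy.

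Of the 14 β promoters with a sequence, 13 had a CHM13 peak. That all 11 with the β 10-mer shown above had one is thus near the share of the cluster. RefSeq promoter sequences were found for 47 members, and PCDHA3, PCDHA13, PCDHB6, PCDHB11, PCDHGA12 and PCDHGC5 had no entry in the table. In the β cluster, GGTGGCGCTG was present in 11 of 14 promoters, 16 to 84 bases before the start, and in 0.297% of the 15812 promoters of protein-coding genes. All 11 had a CHM13 peak, and the 10-mer lay inside it in each of them. Since every peak covered the start, the position of a 10-mer inside a peak does not tie the peak to it. PCDHB14, with 1 differing base, had peaks of all 3 subunits, and PCDHB1, also with 1, had none. PCDHB8, with RAD21 and SA2 peaks, had no match within 2 differing bases in the 250 bases searched, but in its table entry of 300 bases an exact copy began 2 bases before the start and ran past it, inside both peaks.

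In the γ cluster, GCGCCGCTGT was present in 9 of 20 promoters and in 0.133% of all promoters, and 2 of those 9 genes, PCDHGA9 and PCDHGA10, had a CHM13 peak. With up to 2 differing bases it was found in all 20, as in 35.9% of all promoters, so at this tolerance it separates nothing. A related 10-mer, GTCGCTGTTG, was present at PCDHGA2, PCDHGA3, PCDHGB2, PCDHGA5 and PCDHGA6, of which 4 had a CHM13 peak, and in 0.0822% of all promoters. Other γ 10-mers went the other way. TGGGCGCCGC was present at 6 γ genes, of which 0 had a CHM13 peak, and GGCGCCGCTG at 6, of which 1 did. In the α cluster, ATGATGTCGC was present in 8 of 13 promoters and in 0.0569% of all promoters, 45 to 88 bases before the start. Of these 8, PCDHA4, PCDHA6 and PCDHA8 had a CHM13 peak, with the 10-mer inside it, and PCDHA1, PCDHA2, PCDHA5, PCDHA7 and PCDHA12 had none. A CHM13 peak was thus found at 11 of 11 β genes, 2 of 9 γ genes and 3 of 8 α genes with an exact 10-mer. Among promoters without it, a CHM13 peak was found at 2 of 3 β genes, 7 of 11 γ genes and 0 of 5 α genes. In all, 13 of the 14 β genes in the table had a CHM13 peak. The 10-mers of single clusters were added after the values had been seen. All matches with up to 2 differing bases lay on the strand of the gene. The search was by letters, and related copies in a gene family are no independent sites.

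The motif fixed for CTCF, CCNNNAGNNGGC on either strand, was rare at the members. It was found in the 250 bases before the start at 1 of 47 members (2.13%), PCDHB9, 76 bases before the start and on the plus strand, against 11.0% of all protein-coding promoters. At PCDHB9 the last letters of this match overlap the first letters of the β 10-mer shown above. Absence of these letters says nothing on whether CTCF binds. The promoters of the members were also poor in G and C, with a median of 37.6% against 62.4% for all protein-coding promoters, and held a median of 6 CpG dinucleotides against 17. In the α cluster the GC content was 34.8% in promoters with a CHM13 peak and 35.0% in those without, and in the γ cluster it was 37.6% and 44.4%. Whether GC content or CpG number has a part in the peaks was not tested.

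RPE-1 cells had peaks at 4 member starts, and 2 of these had none in CHM13 cells. PCDHGA11 had all 3 subunits in both lines. PCDHGC3, a C-type gene, had RAD21 (342 bp) in RPE-1 cells within its wider CHM13 peak. PCDHGB7, the gene next to PCDHGA11, had RAD21 (577 bp) and SA1 (496 bp) in RPE-1 cells only, and PCDHA13 had RAD21 in RPE-1 cells only. Of the 25 CHM13 RAD21 peaks at member starts, 2 overlapped an RPE-1 RAD21 peak (8.00%, 2.22 to 25.0), against 19.5% (19.2 to 19.8) of all CHM13 RAD21 peaks. For SA1 the figures were 1 of 22 (4.55%, 0.807 to 21.8) against 27.2%, and for SA2 1 of 23 (4.35%, 0.772 to 21.0) against 14.2%. The SA1 interval lies below the genome share, while the RAD21 and SA2 intervals contain it.

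Counted by genes with 1 kb on either side of the start, the members had the same shares, and among all protein-coding genes with CHM13 RAD21 17.0% also had RAD21 in RPE-1 cells. The corresponding share was 9.73% for SA1 and 9.31% for SA2. All 3 member intervals contain the share of all genes, so by this measure a lower share at the members was not detectable. The RPE-1 lists are much shorter than the CHM13 lists, with 14998, 10724 and 6416 peaks for RAD21, SA1 and SA2 against 73881, 38284 and 44503, and their part in the members without an RPE-1 peak was not tested. The RPE-1 SA2 list on hg38 held 67.0% as many peaks as the same list on CHM13 v1.0, while the other 5 held 93.3% to 103.5%.

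Counted per Mb, peaks were dense in the β cluster of CHM13 cells. The β cluster (198.0 kb) held 16 RAD21 peaks, or 80.8 per Mb, which was 3.19 times the density in the rest of the genome (95% interval 1.82 to 5.18). For SA1 the ratio was 5.40 (2.95 to 9.06, 14 peaks), and for SA2 it was 4.97 (2.78 to 8.20, 15 peaks). The γ cluster (182.5 kb) held 11 RAD21 peaks at a ratio of 2.38 (1.19 to 4.26), 10 SA1 peaks at 4.18 (2.01 to 7.69) and 6 SA2 peaks at 2.16 (0.792 to 4.70), the last being within counting error of the rest. The α cluster (226.2 kb) held 2 RAD21 peaks at a ratio of 0.349 (0.0423 to 1.26), 0 SA1 peaks (ratio up to 1.24) and 4 SA2 peaks at 1.16 (0.316 to 2.97), each within counting error of the rest. Start spacing differed as well, with medians of 7.06 kb in α, 9.09 kb in β and 4.97 kb in γ. In RPE-1 cells the β cluster held no peak (ratio up to 3.63 for RAD21), and the γ cluster held 3 RAD21, 2 SA1 and 1 SA2 peaks.

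**Figure D4:**
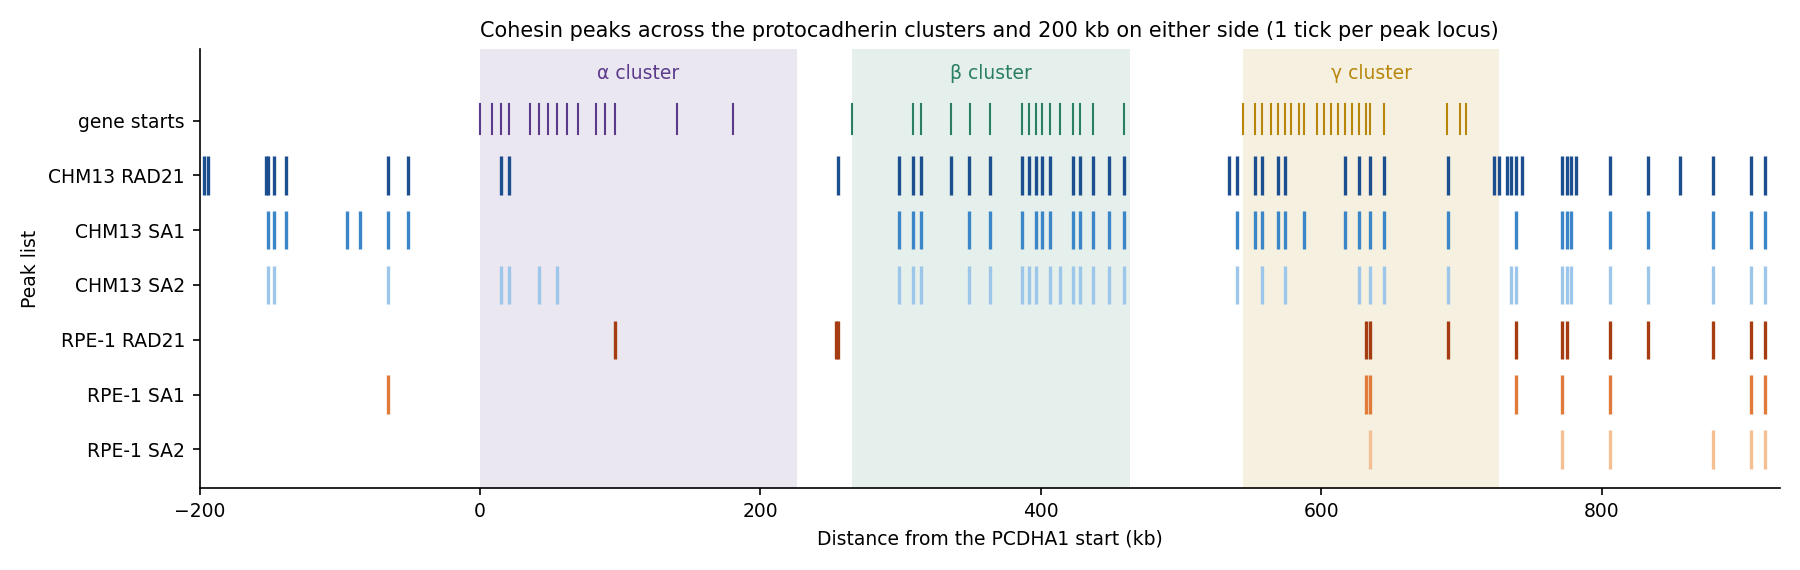
Peak loci in the clusters and 200 kb on either side, as distance in kb from the PCDHA1 start, 1 tick per peak locus and 1 row per list, with gene starts above and the α, β and γ clusters shaded. CHM13 ticks follow the gene starts in β and parts of γ, while most RPE-1 ticks lie to the right of the γ cluster.

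Peaks of the 6 lists merged into 63 loci, of which 31 lay at a member start and 32 outside every member window. Of the 31 at starts, 29 had a CHM13 peak, 4 an RPE-1 peak and 2 both. Of the 32 others, 31 had a CHM13 peak, 11 an RPE-1 peak and 10 both. Thus 10 of the 12 loci seen in both lines were away from member starts.

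The region downstream of the γ cluster, where γ gene transcription ends, held most of the shared loci. Its 200 kb had 14 RAD21 peaks in CHM13 cells, 2.76 times the density in the rest of the genome (1.51 to 4.64), and 8 in RPE-1 cells, 7.80 times (3.37 to 15.4). SA1 and SA2 had 5 peaks each in RPE-1 cells, at 6.80 (2.21 to 15.9) and 11.4 (3.70 to 26.6) times the rest. Of the 14 CHM13 RAD21 peaks, 8 overlapped an RPE-1 RAD21 peak (57.1%, 32.6 to 78.6), an interval above both the genome share of 19.5% and the interval at member starts, 2.22 to 25.0. All 4 loci away from starts with a peak in all 6 lists lay here. Both chr5:141557471-141558462 and chr5:141591878-141592676 lay in introns of DIAPH1, a formin that nucleates actin filaments, and chr5:141691884-141692657 and chr5:141701955-141702838 were intergenic. The locus nearest to the γ cluster with RPE-1 peaks, chr5:141524508-141525773, was in DIAPH1 and in 5 lists, as was chr5:141664912-141665528 in an intron of ARAP3. The DIAPH1 start (chr5:141618871-141619608) had a peak in 4 lists.

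Between the clusters, CHM13 cells had 1 RAD21 peak from α to β, at a ratio to the rest of the genome of 1.01 (0.0256 to 5.64). From β to γ they had 2, at 0.973 (0.118 to 3.52). These densities, 25.6 and 24.65 per Mb, are below the 76.9 and 37.0 per Mb that 3 peaks would give. The counts are too few to place either gap above or below the rest. In RPE-1 cells the gap from α to β held 2 RAD21 peaks, 9.99 times the density in the rest (1.21 to 36.1). That was 51.2 per Mb, below the 76.9 per Mb that 3 peaks would give. The 2 peaks lay less than 1 kb from each other, and joining such peaks made them 1. The gap from α to β (39.03 kb) had a RAD21 locus seen in both lines (chr5:141041110-141041585) and another seen in RPE-1 cells only (chr5:141040088-141040547), both intergenic and without SA1 or SA2. Upstream of the γ cluster, chr5:141325892-141326542 had all 3 subunits in CHM13 cells. In the β cluster, 2 loci lay outside member windows, and both had all 3 subunits in CHM13 cells: chr5:141084270-141084907, in an intron of PCDHB1-AS1, and chr5:141234048-141234607, at the start of the pseudogene PCDHB18P. None of the other 5 protocadherin pseudogenes in the clusters, looked at after the values had been seen, had a peak. Near the γ constant exons, RAD21 peaks in CHM13 cells lay in an intron shared by all 22 γ genes (chr5:141508836-141509556) and in their 3' UTR (chr5:141512317-141512787).

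The motif CCNNNAGNNGGC was held by 13 of the 32 loci away from member starts. It was found at 9 of 14 loci downstream of γ, 4 on the plus and 5 on the minus strand where the match nearest the middle was taken, and at both loci of the gap from α to β, on the minus strand. Elsewhere it was found at 1 of 10 loci upstream of α, at 1 of 2 in the γ cluster away from starts, and at 0 of 2 both in the β cluster away from starts and in the gap from β to γ. At member starts 3 of 31 loci held it. Among all peaks of chromosome 5 20.7% of those for RAD21 held it in the CHM13 list, with 27.3% for SA1 and 23.8% for SA2, and the RPE-1 lists had 42.4%, 36.1% and 38.3% in the same order. These shares are of peaks of single lists, whereas the loci are merged over the 6 lists and can be wider, so the units are not alike. These 36-base stretches, with the match in capitals, come from the gap, read on the minus strand, and from 3 of the 4 loci downstream of γ with peaks in all 6 lists, on the plus strand. The remaining one, chr5:141557471-141558462, held no match.
chr5:141040351-141040386: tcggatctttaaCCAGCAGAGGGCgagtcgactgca
chr5:141041360-141041395: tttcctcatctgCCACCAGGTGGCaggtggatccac
chr5:141592192-141592227: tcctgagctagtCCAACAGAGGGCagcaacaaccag
chr5:141692229-141692264: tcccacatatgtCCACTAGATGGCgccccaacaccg
chr5:141702295-141702330: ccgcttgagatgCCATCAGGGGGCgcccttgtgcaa

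Subunits overlapped more at member starts than over the genome in the RAD21 list. Of 25 CHM13 RAD21 peaks at starts, 21 overlapped an SA1 peak (84.0%, 65.4 to 93.6), against 48.1% over the genome, and 20 an SA2 peak (80.0%, 60.9 to 91.1), against 57.2%. Conversely, 21 of 22 SA1 peaks (95.5%, 78.2 to 99.2) overlapped RAD21, against 94.6% over the genome, as did 20 of 23 SA2 peaks (87.0%, 67.9 to 95.5), against 96.9%. The SA2 peaks without RAD21 were those at PCDHA6, PCDHA8 and PCDHB11. SA1 and SA2 shared 17 starts, SA1 was without SA2 at 5 (PCDHB9, PCDHGA2, PCDHGA4, PCDHGA6 and PCDHGA9), and SA2 was without SA1 at 6, 4 of them in the α cluster. The share of SA1 peaks with SA2 was 77.3% (56.6 to 89.9) against 85.8% over the genome, and that of SA2 peaks with SA1 was 73.9% (53.5 to 87.5) against 73.8%, so that both intervals contain the genome share.

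Protocadherin genes outside the clusters are not part of these tandem arrays, and 6 of 11 had a peak in any list. PCDH1, which lies downstream on the same chromosome, had a peak in 5 lists and PCDH18 in the 3 CHM13 lists. PCDH7, PCDH9 and PCDH10 had RAD21 only and PCDH15 had SA2 only, all in CHM13 cells, and PCDH8, PCDH12, PCDH17, PCDH19 and PCDH20 had none. Among the 16 other protein-coding genes that start in or within 200 kb of the clusters, 9 had a peak. These included TAF7, between β and γ, with RAD21 in CHM13 cells. The share of all protein-coding genes with a peak in any list was not computed, so neither count can be set against it.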

How the data were processed

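Chromatin immunoprecipitation of RAD21, SA1 and SA2 was sequenced by the authors in 20 libraries, inputs included. They aligned reads with bwa mem, filtered alignments with samtools, called peaks per replicate with macs, joined the replicates' peaks with GenomicRanges (reduce) and discarded loci seen in fewer than 2 replicates. These steps are stated for CHM13 v1.0, and the labels name hg38 as well. No filter on mapping quality is stated, so reads from near-identical protocadherin copies may be misplaced. The deposited values are peak positions in bp with no height, score or replicate, and the library read totals that the study tabulates entered no count here.

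The 6 hg38 lists were intersected with GENCODE 44 in Python 3.11.15 (scipy 1.17.1, pandas 2.3.3). The first exon of the canonical transcript was extended by 1 kb, and an overlap of 1 bp counted as a peak. Shares carry Wilson intervals, densities exact Poisson intervals and density ratios conditional exact intervals, all at 95%. No test was made, since each list pools its replicates. The overlap and motif steps were tested on simulated data. Promoter sequences came from the RefSeq table for hg38. The members and the gene lists were chosen with earlier results of these data known. All 53 members are accounted for. The rule named members with the most lists, 1 list or no list, those with an RPE-1 peak, the C-type genes and PCDHB1, and the others given with sequences or widths were examples chosen after their values had been seen. Loci away from starts were those in the most lists and those between the clusters, the latter chosen after their values had been seen.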

Additional observations from a re-analysis of the deposited data

How the results depend on the processing

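Of 181 values recomputed under other windows, filters and flanks, 166 stayed within 1.5 times the main value and 15 moved. Requiring overlap with both other subunits left 0 α genes with RAD21 and 0 with SA2 in CHM13 cells, 7 γ genes with SA1, and in RPE-1 cells 2 members with RAD21, of which 0 were α genes. With 1 kb on either side of the start alone, or with the first exon and no extension, SA2 in RPE-1 cells was found at 1 member, a γ gene, since the other count was a neighbour's peak. Without the flanks, peaks numbered 32 (RAD21) and 25 (SA1) in CHM13 cells and 6, 2 and 1 (RAD21, SA1, SA2) in RPE-1 cells. With flanks of 100 kb, SA2 in RPE-1 cells had 3 peaks. These counts follow from the smaller windows. No count moved beyond 1.5 times when peaks under 300 bp were left out, peaks closer than 1 kb were joined, or any transcript's first exon was used. Joining left 13 RAD21 peaks in RPE-1 cells in the clusters and flanks instead of 14, as the 2 in the gap from α to β became 1. In alternatives chosen after seeing the data, the single most shared 10-mer matched 11 members, the 10-mer of each cluster 28, and the latter with up to 2 differing bases 44. No paired analysis was possible because each list pools its replicates and no result comes from a test. For the same reason no replicate could be left out, and no stricter score could be set.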
